A study of Mus musculus with 4 samples.

Results

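H3K27ac marked 721 wide distal regions in trunk chondrocytes that lay in none of the other 3 peak lists of the series. The mark was profiled by ChIP-seq at embryonic stage E14.5 in EGFP+ and EGFP- cells sorted from the limbs and from the trunk of fetuses with the genotype Col2a1-EGFP on the G4 background. The reporter was carried homozygously by embryonic stem cells from which the fetuses were made by tetraploid aggregation, so all 4 populations share it. EGFP was read from a sensor placed upstream of Col2a1, the gene of type II collagen, and EGFP+ cells are therefore those in which this locus was active. Limbs and trunks were pooled before sorting, 1 library was made per population, and no replicate error exists for any value below.

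Peak intervals of the 4 lists on chromosomes 1 to 19, X and Y were merged into 62558 regions. A region was taken where it held a trunk EGFP+ interval and no interval of limb EGFP+, limb EGFP- or trunk EGFP- cells, where it stayed outside the promoter windows, which span the 2 kb before and the 500 bp after each protein-coding start site (called distal here), and where it was at least 400 bp wide. The 721 regions were 1.15% of all merged regions, 4.03% of the 17871 distal regions with a trunk EGFP+ interval, and 11.6% of the 6240 distal regions of trunk EGFP+ cells alone of any width. Each of them was a single trunk EGFP+ interval. The same rule gave 1445 regions of limb EGFP+ cells alone (15.5% of their distal regions of any width), 569 of limb EGFP- cells alone (8.43%) and 455 of trunk EGFP- cells alone (9.40%). The choice used the calls and their width, so the strength, the width and the absence from the other lists are descriptions.

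H3K27ac is an acetylation of histone H3 laid down at active promoters and enhancers, and wide acetylated stretches away from start sites are commonly read as candidate enhancers. Chondrocytes build the cartilage that prefigures the skeleton under the control of Sox9, Sox5 and Sox6. In the trunk they come largely from the sclerotome of the somites, where forkhead, Pax and Nkx factors act downstream of Hedgehog signals, whereas limb chondrocytes come from the lateral plate mesoderm.

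The labels of the cells were checked at promoters, which the rule left out. All 8 chondrocyte markers had an interval in their promoter window in both EGFP+ lists, against 3 in limb EGFP- and 2 in trunk EGFP- cells. No promoter window of the 5 skeletal muscle, 5 endothelium, 4 epidermis, 5 notochord and 6 neural markers held a trunk EGFP+ interval. The EGFP- lists marked few of them either. Each marked 1 endothelium marker, trunk EGFP- cells marked 1 neural marker, and neither marked the muscle, epidermis or notochord markers. Limb EGFP+ cells marked 1 muscle marker. The absence of these markers therefore does not separate the populations. The lists held 30716 to 40899 intervals, with 36231 in trunk EGFP+ cells. The median distal summit had 16 to 18 reads in the 4 lists. Limb and trunk libraries were run on separate lanes according to the labels, and the effect of lane cannot be told apart from that of tissue. The peak names of the trunk EGFP- list carry a replicate 2 tag although the sample is labelled replicate 1.

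The sequences around the summits of 8 of the regions are printed below as the DNA that the results return to: the region of highest −log10 p (nearest gene Tmem247), 2 regions at the forkhead genes Foxd1 and Foxl1, 3 at genes listed by the study as trunk-specific (Itgbl1, Mgst2, Vdr), the widest region (nearest gene Runx1) and a region in the BMP receptor gene Bmpr1b. Each run is 201 bases of the plus strand of GRCm39 centred on the strongest summit, 5′ to 3′. Capitals mark the letters of the SOX (AACAAT and ACAAAG), FOX (TGTTTAC), RUNX (TGTGGTT), homeodomain (TAATTA) and E-box (CAGCTG and CAGATG) motifs on either strand.
Tmem247 region, chr17:87237006-87237206: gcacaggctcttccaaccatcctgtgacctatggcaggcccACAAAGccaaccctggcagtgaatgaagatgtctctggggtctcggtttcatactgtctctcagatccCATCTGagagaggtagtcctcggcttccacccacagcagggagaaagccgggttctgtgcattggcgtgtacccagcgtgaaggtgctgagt
Foxd1 region, chr13:98502311-98502511: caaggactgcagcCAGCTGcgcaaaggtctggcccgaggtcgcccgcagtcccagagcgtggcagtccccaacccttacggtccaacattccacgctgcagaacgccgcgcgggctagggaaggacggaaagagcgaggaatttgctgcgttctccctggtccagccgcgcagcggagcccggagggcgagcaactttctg
Foxl1 region, chr8:121946598-121946798: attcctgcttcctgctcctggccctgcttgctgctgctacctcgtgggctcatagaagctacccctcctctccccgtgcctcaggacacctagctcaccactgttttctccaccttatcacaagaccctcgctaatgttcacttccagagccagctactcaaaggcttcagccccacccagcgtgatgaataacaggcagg
Itgbl1 region, chr14:123890053-123890253: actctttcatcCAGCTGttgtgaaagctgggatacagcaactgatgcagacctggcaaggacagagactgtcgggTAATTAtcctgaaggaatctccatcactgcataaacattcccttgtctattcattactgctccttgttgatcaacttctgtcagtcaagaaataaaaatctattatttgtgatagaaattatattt
Mgst2 region, chr3:51634949-51635149: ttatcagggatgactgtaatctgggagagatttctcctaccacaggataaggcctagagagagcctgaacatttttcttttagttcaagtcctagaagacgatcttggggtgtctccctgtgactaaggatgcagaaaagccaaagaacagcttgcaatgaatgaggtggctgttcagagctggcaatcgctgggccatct
Vdr region, chr15:97737921-97738121: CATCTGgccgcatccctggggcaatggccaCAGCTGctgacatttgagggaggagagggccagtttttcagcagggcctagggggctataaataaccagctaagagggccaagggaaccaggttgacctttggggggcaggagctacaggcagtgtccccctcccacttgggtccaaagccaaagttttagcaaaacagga
Runx1 region, chr16:92823411-92823611: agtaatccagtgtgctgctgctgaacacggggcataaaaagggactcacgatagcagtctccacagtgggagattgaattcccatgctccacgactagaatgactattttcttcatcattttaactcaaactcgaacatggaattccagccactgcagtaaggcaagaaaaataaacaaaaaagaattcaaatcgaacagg
Bmpr1b region, chr3:141804720-141804920: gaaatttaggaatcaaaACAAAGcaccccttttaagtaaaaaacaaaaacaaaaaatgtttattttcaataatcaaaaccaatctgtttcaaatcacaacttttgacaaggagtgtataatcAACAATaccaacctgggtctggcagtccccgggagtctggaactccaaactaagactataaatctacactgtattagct
Of these 8 windows, 5 held such a match, and none of the 8 held the FOX or RUNX letters. The Bmpr1b window had 1 match of each SOX form and the lowest G and C content of the 8 (33.8%). The Foxd1 window had the highest (65.7%) and 1 E-box. All 8 windows lie in introns, noncoding genes or intergenic DNA. A match is a string of letters and does not show that a factor was bound.

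The regions were modest peaks. Their median width was 464 bp, from 400 to 1151 bp, and 300 of them were under 450 bp while 101 reached 600 bp and 6 reached 1000 bp. All 17871 distal regions with a trunk EGFP+ interval had a median of 455 bp and an upper quartile of 727 bp. Intervals of the other lists add to those widths. The upper quartile of the set was 543 bp, and distal trunk EGFP+ intervals by themselves had a median of 324 bp. Among the regions of the set, a single summit was called in 606, 2 summits in 106, 3 in 8 and 4 in 1. Fold over the local background had a median of 3.62 (2.0 to 7.14), and −log10 p a median of 6.03 (3.38 to 17.2). The number of reads at the summit followed from these values and had a median of 15, from 7 to 53, over a median local background of 3.38. The summits of limb EGFP+ regions chosen by the same rule had a median of 18 reads, those of limb EGFP- cells 16 and those of trunk EGFP- cells 15. A −log10 q of 5 or more was reached by 185 regions (25.7%), against 54.0%, 38.5% and 23.3% in the limb EGFP+, limb EGFP- and trunk EGFP- sets.

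**Figure D1:**
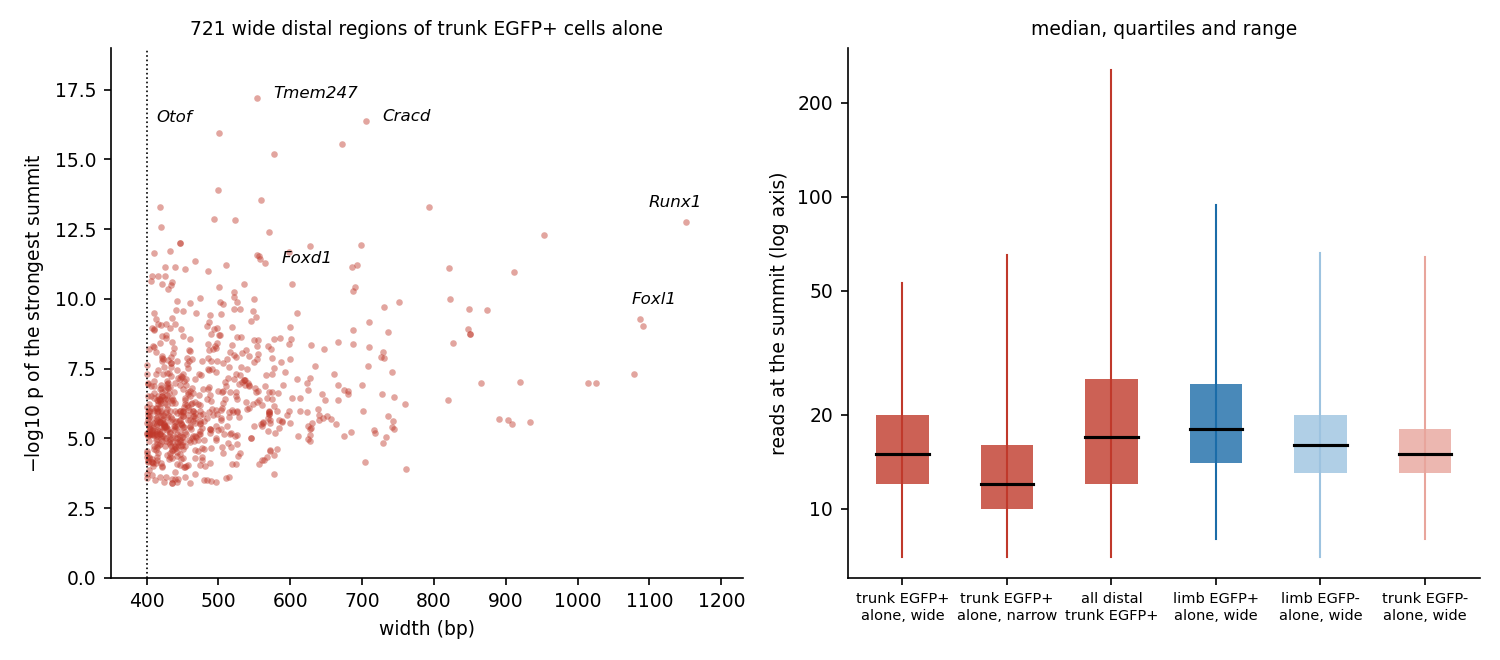
Width and −log10 p of the strongest summit of the 721 regions, 1 point each, with the nearest gene of 6 of them and a dotted line at the 400 bp minimum (left), and reads at the summit on a log axis as median (black line), quartiles (box) and range (line) in 6 sets of distal regions (right). Most points lie under 600 bp and under a −log10 p of 7.54, the upper quartile, and the median of 15 reads lies below the 17 of all distal trunk EGFP+ regions and above the 12 of the narrower regions of trunk EGFP+ cells alone.

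Absence from a list is not absence of the mark at this depth. The weakest distal summit of the limb EGFP+ list had 7 reads, its 5th percentile was 9 and its median 18. The exact 95% Poisson interval of the summit reads, which covers counting error only, lay above 7 reads in 446 regions, above 9 in 340 and above 18 in 53. Outside the first count, a limb EGFP+ level just under the weakest call could not be told from the trunk EGFP+ level by counting error. Calls are made against the local background, so an uncalled limb EGFP+ level can exceed 7 reads where that background is high. The count of 446 is therefore an upper limit. In sorted bulk cells, fewer marked cells and less mark per cell cannot be told apart.

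The width minimum cut through a continuous range. Just inside it lay 3 regions of 400 bp with the nearest genes Plpbp, Rcor2 and Iqch, whose −log10 p was 7.63, 6.11 and 5.57. Just outside lay 3 regions of 399 bp near Pak3, Kplce and Paqr3 with 8.72, 7.77 and 7.34.

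The strongest region lay on chr17:87236967-87237519, 11.3 kb downstream of the start site of Tmem247 and inside the noncoding gene Gm50011. It had 26 reads (95% interval 17 to 38.1) over a background of 2.78 and a fold of 7.14, and the nearest intervals of the 3 other lists were 7496 to 7930 bp away. Its nearest gene had no marked promoter in any list. The next region by −log10 p (16.4) lay in an intron of Cracd, a gene of capping protein regulation in the actin cytoskeleton, 3.26 kb into the gene at chr5:77016678-77017382, with 28 reads over 3.58 and a limb EGFP+ interval 2643 bp away. The Cracd promoter was marked in all 4 lists. A region with 28 reads over 3.72 followed in an intron of Otof, whose protein serves vesicle fusion in sensory hair cells, at chr5:30557999-30558499. Its nearest interval of any other list was 81874 bp away. The promoter of Otof was marked in no list.

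The other 9 of the 12 strongest regions had −log10 p between 12.8 and 15.5 and 23 to 36 reads. Their nearest genes were Noxa1, Ppp3ca (a catalytic subunit of calcineurin), Far2, Wasf2 (an activator of actin branching), Reep2, Lipg, Srbd1, Ankrd46 and Runx1. The region near Wasf2, at chr4:132811789-132812347, had the most reads of the 12, 36 over a background of 7.72, and a trunk EGFP- interval 487 bp away. That near Reep2 lay in an exon of Kdm3b and 22 bp from a limb EGFP+ interval. The region near Srbd1 lay 127 bp from one, and that near Ankrd46 600 bp. The 12 strongest regions thus included both regions beside an interval of another list and regions far from any.

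The 5 widest regions were nearest to Runx1 (1151 bp), Arl6ip5 (1091 bp), Foxl1 (1087 bp), Dnm3 (1079 bp) and Afap1l2 (1026 bp). The Runx1 region held 4 summits, the Arl6ip5, Foxl1 and Afap1l2 regions 3 each and the Dnm3 region 2. Their summits had 17 to 29 reads. The Arl6ip5 region ended 6 bp from a limb EGFP+ interval and the Foxl1 region 78 bp from one, while the Runx1 region lay 45054 bp from the nearest.

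Forkhead genes of the sclerotome and its surroundings came with some of the regions. Of 23 genes listed for sclerotome and axial patterning, 4 had a region within 100 kb of a start site, namely Foxc2, Foxd1, Foxf1 and Foxl1. Such a region stood near 6.42% of all 21562 protein-coding genes and near 17.4% of the list. Limb EGFP+ regions chosen by the same rule stood near 7 of the 23 genes (30.4%), against 10.4% of all genes, and trunk EGFP- regions near 3 (13%), against 4.67%. The share of the list was thus above that of all genes in these 3 sets. Limb EGFP- regions stood near 0, against 4.89%. Of the 4 genes near trunk EGFP+ regions, Foxc2, Foxf1 and Foxl1 counted through the same region, and none was a Pax or Nkx gene.

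Foxf1, Foxc2 and Foxl1 lie side by side on chromosome 8 and share their regions. Foxc2 is needed for the formation of vertebral arches and Foxf1 for mesenchyme of the lateral plate and gut. The first region, chr8:121843506-121843966, lay within the coding exon of Foxc2, 791 bp into the gene, with 42 reads (30.3 to 56.8) over a background of 13.5 and a −log10 p of 9.84. The nearest intervals of the 3 other lists were 7711 to 7964 bp away. No promoter window of Foxc2 held an interval in any list, that of Foxf1 held one in trunk EGFP+ cells alone, and that of Foxl1 held one in both EGFP+ lists and neither EGFP- list. The second region, chr8:121946051-121947137, lay 92.0 kb downstream of the Foxl1 start site, had 28 reads over 7.06 and stood 78 bp from a limb EGFP+ interval with 18 reads. A further region of 403 bp lay 156 kb downstream of Foxl1 with 16 reads. Over the 240 kb around these genes, trunk EGFP+ cells had 17 intervals, limb EGFP+ cells 13, trunk EGFP- cells 4 and limb EGFP- cells 1.

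Foxd1, which encodes a forkhead factor known from the kidney stroma, was the nearest gene of 3 regions. They lay 11.7 kb, 19.6 kb and 122 kb downstream of its start site and had 22 reads over 3.52, 16 over 3.54 and 24 over 5.1. The nearest limb EGFP+ interval was 16825 to 24422 bp from each. The Foxd1 promoter was marked in trunk EGFP+ cells with 33 reads and in none of the 3 other lists. In the 160 kb from 30 kb upstream to 130 kb downstream of the gene, trunk EGFP+ cells had 11 intervals, limb EGFP+ cells 5, trunk EGFP- cells 1 and limb EGFP- cells 0.

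**Figure D2:**
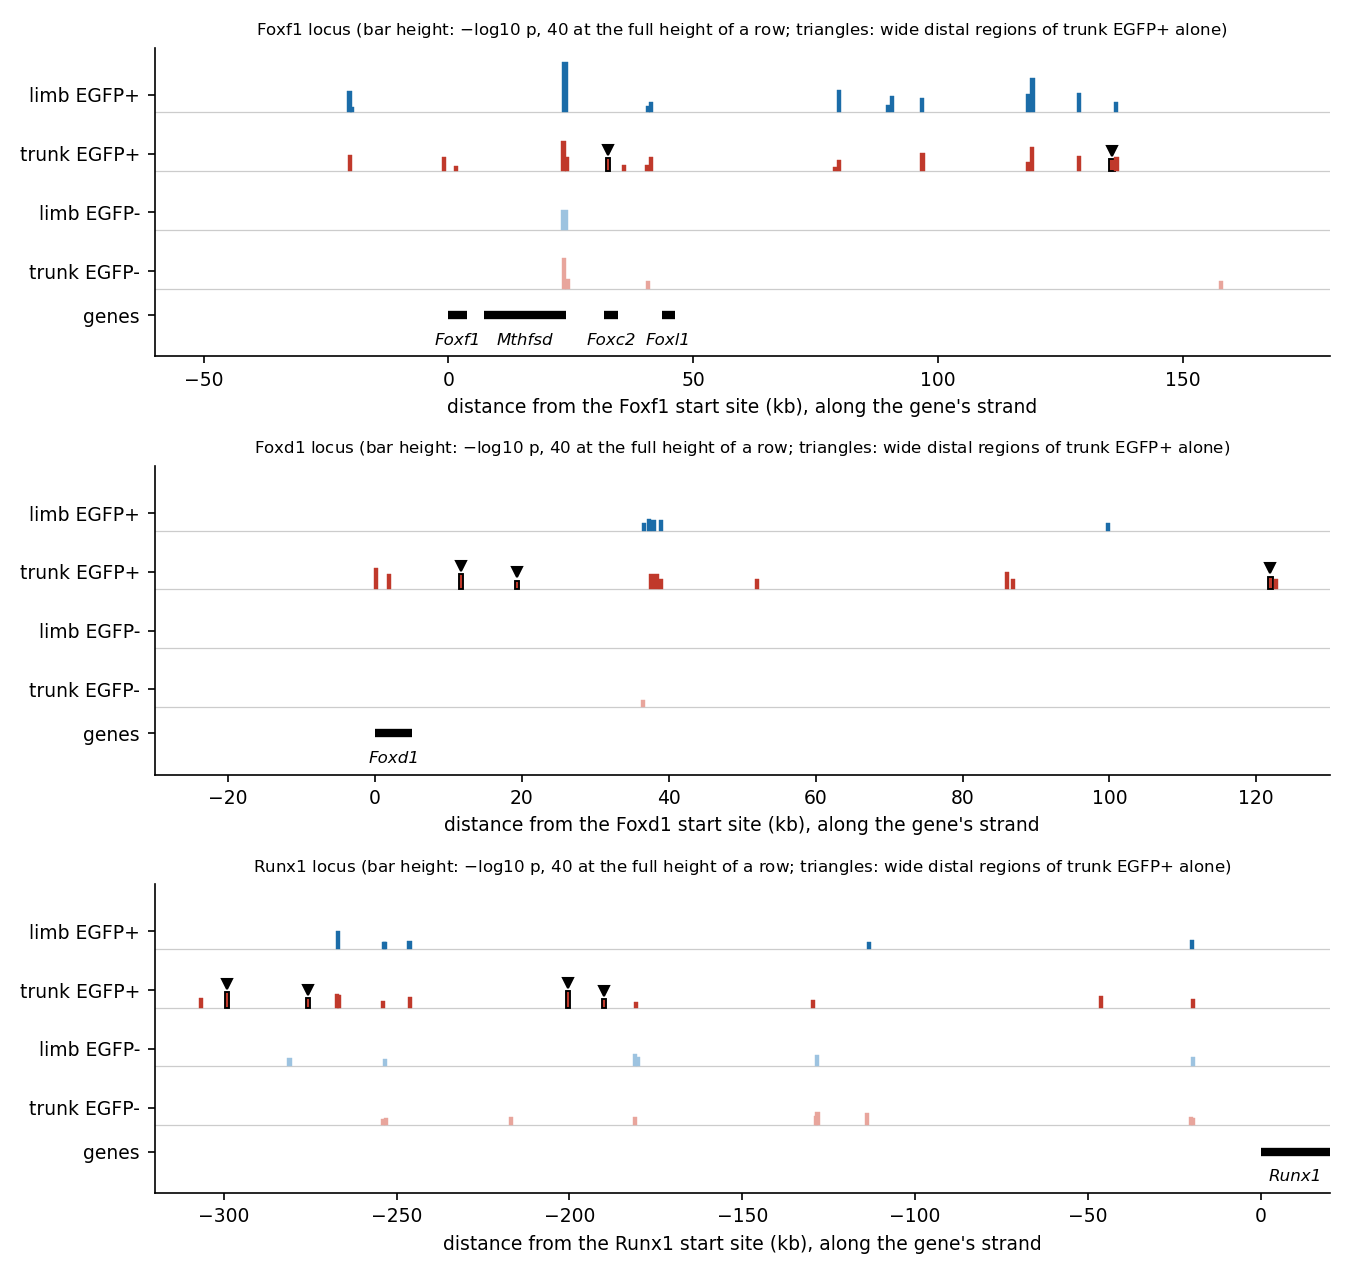
Peak intervals of the 4 lists at 3 loci, by distance from the start site of Foxf1, Foxd1 or Runx1 in kb, with bar height the −log10 p of the strongest summit and triangles over the wide distal regions of trunk EGFP+ cells alone (intervals too narrow to see are drawn wider than they are). Triangles stand over 2, 3 and 4 intervals, and the Foxd1 start site carries an interval in the trunk EGFP+ row alone.

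The 4 regions of the largest group lay far upstream of Runx1, a transcription factor of chondroprogenitors and blood stem cells. They fell within 109.7 kb on chromosome 16 (chr16:92812742-92922411), 190 to 299 kb upstream of the Runx1 start site, and no protein-coding start site lay within 100 kb. Their −log10 p ran from 6.36 to 12.8 and their reads from 19 to 29. Within the same stretch the trunk EGFP+ list had 8 distal intervals, limb EGFP+ 4, trunk EGFP- 3 and limb EGFP- 2. Another region lay inside Runx1, in an intron 52.4 kb from a start site, with 21 reads over 3.52. A promoter window of Runx1 was marked in all 4 lists, though none held an interval at its outermost start site.

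Groups of 3 regions joined within 100 kb lay at Arl6ip5, Lmod3 and Frmd4b, at Atp5pf, at Itga11 and at Sec24b and Col25a1. Itga11 encodes the alpha subunit of a collagen-binding integrin of mesenchyme, and its 3 regions within 81.8 kb had −log10 p values between 5.20 and 7.39. Its promoter was marked in both EGFP+ lists and in neither EGFP- list. Limb EGFP+ cells also had 3 wide distal regions of their own within 100 kb of Itga11. Of the 721 regions, 600 had no other region of the set within 100 kb.

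Counted by gene, 1270 protein-coding genes had 1 region within 100 kb of a start site, 107 had 2 and 7 had 3. The 7 were Wasf2, Nckap5, Rbpj (the transcription factor of Notch signalling), Lmod3, Hmgcll1, Itga11 and Col25a1, and Ahdc1 followed with 2. The promoters of Wasf2, Nckap5, Rbpj, Col25a1 and Ahdc1 were marked in all 4 lists and that of Lmod3 in none.

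Among 20 chondrocyte transcription factors, 5 had a region within 100 kb (Nfib, Runx1, Runx2, Sox5 and Sox6), 25% against the background of 6.42%. Limb EGFP+ regions stood near 10 of the 20 (50.0%, background 10.4%), limb EGFP- regions near 1 (background 4.89%) and trunk EGFP- regions near 0 (background 4.67%). Runx2, which drives hypertrophy and bone formation, had 2 regions, the stronger one in its intron at chr17:45021312-45021823 with 19 reads over 4.08. It stood 23720 bp from the nearest limb EGFP+ interval and 144 bp from a limb EGFP- interval. The stronger of 2 Sox6 regions had 26 reads over 7.54 and a limb EGFP+ interval 610 bp away. That of Sox5 had 29 reads over 10.8 and one 2888 bp away. The Nfib region had 10 reads over a background of 2. Sox5 and Sox6 act with Sox9 on the cartilage matrix genes, and the promoters of Runx2 and Sox5 were marked in both EGFP+ lists and neither EGFP- list.

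Of 30 cartilage matrix genes, 4 had a region (13.3%, against 6.42% of all genes). Limb EGFP+ regions, which are more numerous, stood near 11 (36.7%, against 10.4%), limb EGFP- regions near 1 and trunk EGFP- regions near 0. The 4 were Col2a1, Col11a1, Chad and Fmod. The Col2a1 region lay in the neighbouring gene Senp1, 30 kb upstream of Col2a1 at chr15:97932501-97933031, with 51 reads over the high local background of 20.1. It ended 49 bp from a limb EGFP+ interval. Col2a1 is also the locus of the reporter in all 4 populations. The regions at Col11a1, the gene of a minor fibrillar collagen, and at Chad, the gene of chondroadherin, had 16 and 17 reads. The stronger of 2 regions at Fmod, the gene of fibromodulin, had 16.

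Of 46 growth plate signalling genes, 10 had a region (21.7%, against 6.42% of all genes). Limb EGFP+ regions stood near 11 (23.9%, against 10.4%), limb EGFP- regions near 7 (15.2%, against 4.89%) and trunk EGFP- regions near 0. The BMP pathway gave 4 of the 10. Bmp5, the gene affected in short ear mice, had its region 1025 bp into the gene at chr9:75683485-75684171, with 37 reads over 11.9 and a limb EGFP+ interval 388 bp away. The Bmp7 region had 15 reads and the Bmp2 region 9. The stronger of 2 Bmpr1b regions, intronic at chr3:141804588-141805017, had 24 reads over 4.70, a −log10 p of 10.3 and its nearest limb EGFP+ interval 12677 bp away. The weaker one lay 69 bp from a limb EGFP+ interval. In the FGF pathway, the region 71.1 kb from Fgf18 had 26 reads, the Fgfr2 region 19 and the stronger of 2 Fgfr1 regions 16. The remaining genes were Igf2 (33 reads, 341 bp from a limb EGFP+ interval), Smo (12 reads), the membrane transducer of Hedgehog signals, and Wnt11 (16 reads).

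The Hox count rested on a single region. All 11 of 39 Hox genes counted lie in the Hoxa cluster within 100 kb of chr6:52166042-52166449, a region of 408 bp in Hoxa3 with 23 reads over 9.62 and a fold of 2.26. Limb EGFP+ cells also had 1 wide region near 11 Hox genes, and the EGFP- lists had 0. Of 26 limb patterning genes 1 had a region (Zic2, 3.85%, against 6.42% of all genes) and 7 a limb EGFP+ region (26.9%, against 10.4%).

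The lists of tissue-specific genes were chosen by the study from RNA of the same sorted populations. Of 40 protein-coding trunk-specific genes, 7 had a region within 100 kb (17.5%), which were Foxf1, Foxl1, Itgbl1, Mgst2, Prdm6, Smpd3 and Vdr. The share over all genes was 6.42%. Limb EGFP+ regions also stood near 7 of the 40, where their share over all genes was 10.4%. Of 47 limb-specific genes, 2 had a trunk region (4.26%, Enpp6 and Igf2) and 15 a limb EGFP+ region (31.9%). The count of trunk regions near limb-specific genes was thus close to the share over all genes. Of 556 genes of the shared chondrogenic list, 80 had a trunk region (14.4%) and 147 a limb EGFP+ region (26.4%).

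The promoters of 4 of these 7 genes were marked in trunk EGFP+ cells alone (Foxf1, Itgbl1, Mgst2 and Prdm6). Itgbl1, which encodes an integrin beta-like protein of cartilage, had its region 7.23 kb upstream at chr14:123890010-123890745, with 21 reads over 4.34. A limb EGFP+ interval with 11 reads stood 160 bp away, the 1 limb EGFP+ interval in the 140 kb examined at this gene, where trunk EGFP+ cells had 4 and the EGFP- lists 0. A second, narrower trunk EGFP+ interval overlapped that limb EGFP+ interval. The Mgst2 region, 66.6 kb downstream of the glutathione transferase gene and in an intron of Maml3, had 20 reads over 3.62 and its nearest limb EGFP+ interval 10960 bp away. In the 100 kb examined at Mgst2, trunk EGFP+ cells had 10 intervals, limb EGFP+ cells 9, limb EGFP- cells 4 and trunk EGFP- cells 3. The Prdm6 region on chromosome 18 had 10 reads and a limb EGFP+ interval 341 bp away. The Vdr region, in an intron of Hdac7 at chr15:97737755-97738160, had 19 reads over 2.78 and a limb EGFP+ interval 108 bp away. Vdr, the vitamin D receptor gene, differed from these 4 in that its promoter was marked in both limb lists and in neither trunk list. The Smpd3 region was the weakest of the 7 with a −log10 p of 3.62.

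**Figure D3:**
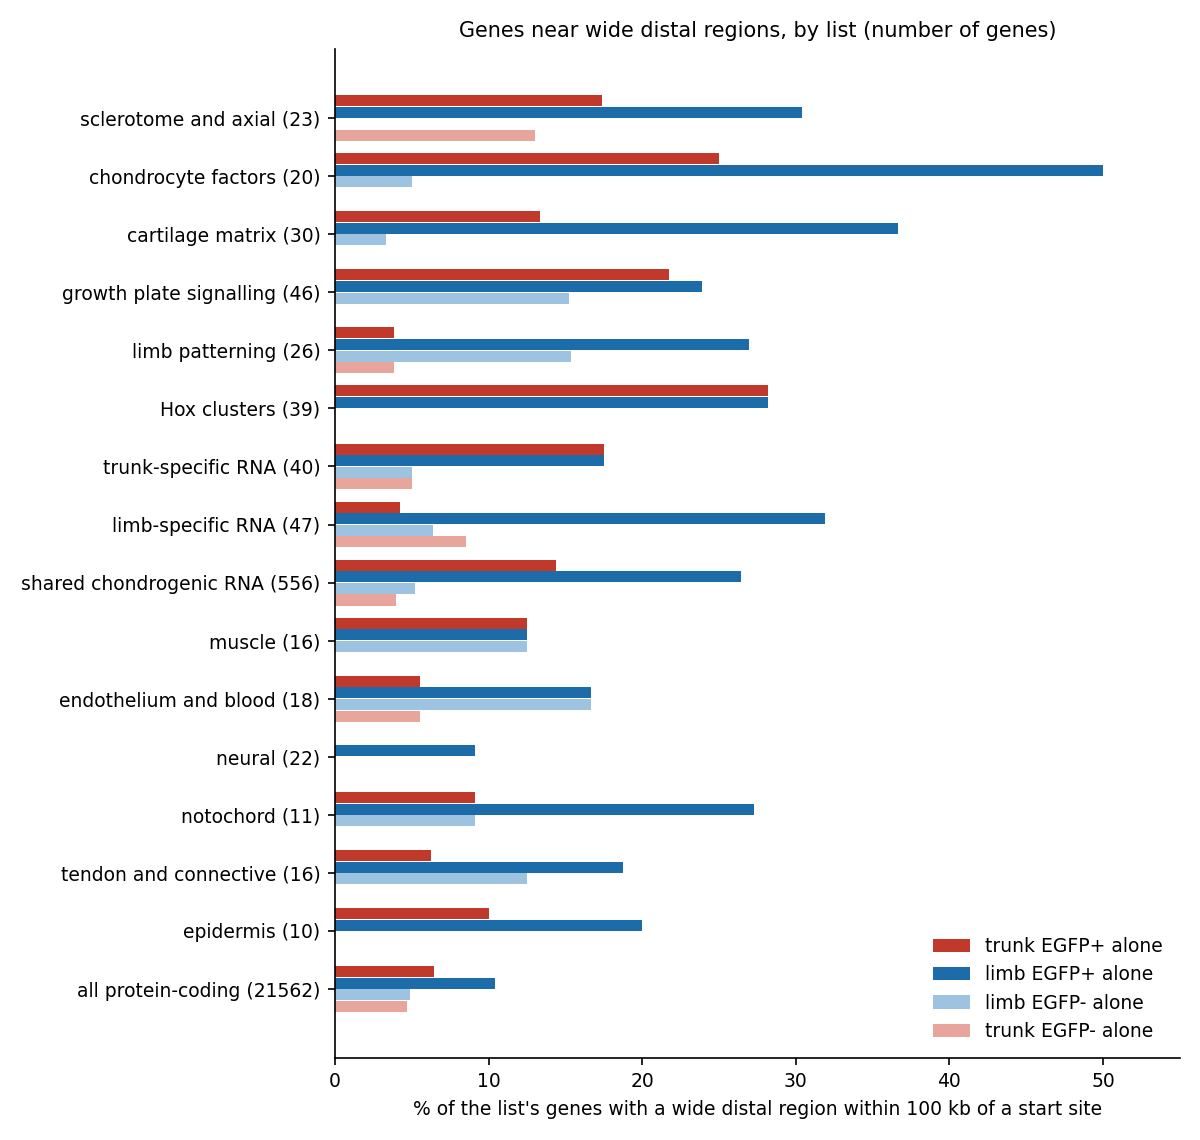
Share of the genes of each list with a wide distal region within 100 kb of a start site, in percent, for the regions of each population alone, with the number of genes in brackets and all protein-coding genes at the bottom. The bars of each set are read against its bar for all genes, 6.42% for trunk EGFP+ and 10.4% for limb EGFP+ regions, which are more numerous. The trunk EGFP+ bar is above it for Hox clusters (28.2%, from 1 region), chondrocyte factors (25%), growth plate signalling (21.7%), trunk-specific genes (17.5%) and sclerotome (17.4%). It is also above it for shared chondrogenic genes (14.4%), cartilage matrix (13.3%), muscle (12.5%), epidermis (10%) and notochord (9.09%). It is near it for limb-specific genes (4.26%). Foxc2, Foxf1 and Foxl1 of the sclerotome list share 1 region.

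The shares of the lists of other cell types ran from 0 to 12.5%, on either side of the 6.42% of all genes. The counts were 2 of 16 muscle genes (Des and Tnnt3), 1 of 16 tendon and connective tissue genes (Egr1), 1 of 18 endothelium and blood genes (Erg), 1 of 10 epidermal genes (Krt14), 1 of 11 notochord genes (Foxj1) and 0 of 22 neural genes. Tnnt3 shares its region with Igf2. The region of Egr1 is the one in Kdm3b. Zic2, Enpp6 and the genes of this paragraph were named after their values were seen.

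Promoters gave a measure that the rule did not use. The nearest protein-coding gene had a promoter interval in trunk EGFP+ cells for 521 of the 721 regions (72.3%), against 52.6% of all protein-coding genes. The same share was 69.6% for limb EGFP+ regions, 70.7% for limb EGFP- regions and 67.9% for trunk EGFP- regions, so it was close in all 4 sets. Marking in trunk EGFP+ and not in trunk EGFP- cells was found for the nearest genes of 60 regions (8.32%), against 3.21% of all genes, 7.54% in the limb EGFP+ set, 5.27% in the limb EGFP- set and 3.74% in the trunk EGFP- set. The shares of the sets up to here are of regions, so a gene nearest to several regions enters for each of them. The shares of all genes are of different genes. Of the 634 different nearest genes, 9 had a promoter marked in trunk EGFP+ cells alone of the 4 lists (1.42%, exact 95% binomial interval 0.651 to 2.68, counting error only), against 0.775% of all genes and 1.07% of the nearest genes of limb EGFP+ regions. More of the 634, namely 15, had a promoter marked in limb EGFP+ cells alone (2.37%, 1.33 to 3.87), against 1.66% of all genes. Marking in both EGFP+ lists and neither EGFP- list was found for 24 (3.79%, 2.44 to 5.58), against 1.45% of all genes and 3.67% in the limb EGFP+ set. These 9 were Foxd1, Mgst2, Itgbl1, Adgrf5, Prdm6, Hip1r, Col19a1 (a minor collagen of basement membrane zones), Dync1i1 and Cdcp2. Adgrf5, Hip1r, Col19a1, Dync1i1 and Cdcp2 were named after their values were seen. Their regions had 11 to 17 reads.

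At the summit, 342 regions (47.4%) lay in an intron and 72 (9.99%) in an exon of a protein-coding gene, 130 (18%) in a noncoding gene and 177 (24.5%) between genes. The share in exons (interval 7.90 to 12.4) was higher than the 5.05% (3.98 to 6.31) of limb EGFP+ regions and the 3.51% (2.16 to 5.38) of limb EGFP- regions, and its interval overlapped that of trunk EGFP- regions (5.49%, 3.59 to 8.0). Over all distal trunk EGFP+ regions it was 7.02%. Of the 72, 20 had the summit in coding sequence and 52 in other exonic sequence. They included the Foxc2 and Bmp5 regions and a pair at Fzd7, a Wnt receptor gene, with 48 and 47 reads, and the strongest were those in Kdm3b, Jmjd1c and Rbfox2. Jmjd1c, Rbfox2 and Fzd7 were named after their values were seen.

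The median distance from the summit to the nearest protein-coding start site was 35272 bp (quartiles 14153 and 95445 bp), against 41041 bp in the limb EGFP+ set, 42216 bp in the limb EGFP- set and 31239 bp in the trunk EGFP- set. A start site lay within 5 kb for 65 regions (9.02%) and over 100 kb away for 170 (23.6%). The summit lay downstream of the nearest start site in 444 regions and upstream in 277. Between 2.39% (chromosome 13) and 4.94% (chromosome 9) of the distal trunk EGFP+ regions of an autosome were in the set. The X chromosome held 14 of the regions and the Y chromosome 0 with 5 distal regions.

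Many of the regions stood near an interval that limb chondrocytes also carried. The gap to the nearest limb EGFP+ interval had a median of 10.0 kb, that to the nearest limb EGFP- interval 19009 bp and that to the nearest trunk EGFP- interval 21359 bp. A limb EGFP+ interval lay within 1 kb of 195 regions (27%, interval 23.8 to 30.4), a limb EGFP- interval within 1 kb of 59 (8.18%, 6.29 to 10.4) and a trunk EGFP- interval within 1 kb of 54 (7.49%, 5.68 to 9.66). The reverse share was similar, with a trunk EGFP+ interval within 1 kb of 30.9% of limb EGFP+ regions (28.5 to 33.3). The EGFP- sets also lay closest to the same fraction of the other tissue. Of limb EGFP- regions, 20.04% had a trunk EGFP- interval within 1 kb, against 10.9% for limb EGFP+ and 8.96% for trunk EGFP+ intervals. Of trunk EGFP- regions, 21.76% had a limb EGFP- interval that close, against 11.6% for limb EGFP+ and 9.01% for trunk EGFP+ intervals. The limb EGFP+ list held 40899 intervals, against 34360 (limb EGFP-) and 30716 (trunk EGFP-). The effect of list size was not tested. No interval of the 3 other lists lay within 1 kb of 485 of the 721 regions and within 5 kb of 388. Another trunk EGFP+ interval lay within 1 kb of 206 regions (28.6%), against 53.4% of limb EGFP+ regions with another limb EGFP+ interval that close. By strength, the share with a limb EGFP+ interval within 1 kb was 30.9% in the 181 strongest regions and 24.4% in the 180 weakest, with overlapping intervals (24.3 to 38.2 and 18.4 to 31.4).

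Regions of both EGFP+ lists were counted in the surroundings as well. A distal region of both EGFP+ lists and neither EGFP- list (4623 in all) lay within 50 kb of 297 of the regions (41.2%, 37.6 to 44.9). This share was 49.3% (46.7 to 51.9) in the limb EGFP+ set, 26.0% (22.5 to 29.8) in the limb EGFP- set and 25.3% (21.3 to 29.5) in the trunk EGFP- set. The share of the trunk EGFP+ set was thus above those of both EGFP- sets and below that of the limb EGFP+ set. The counted regions come from the same peak lists as the sets. Each holds a limb EGFP+ and a trunk EGFP+ interval and no EGFP- interval. That choice by itself favours EGFP+ sets over EGFP- sets, so the difference cannot show a shared chondrocyte neighbourhood. Whether it exceeds the effect of the choice was not tested. The regions of a set share a library and a genome neighbourhood and are not replicates.

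**Figure D4:**
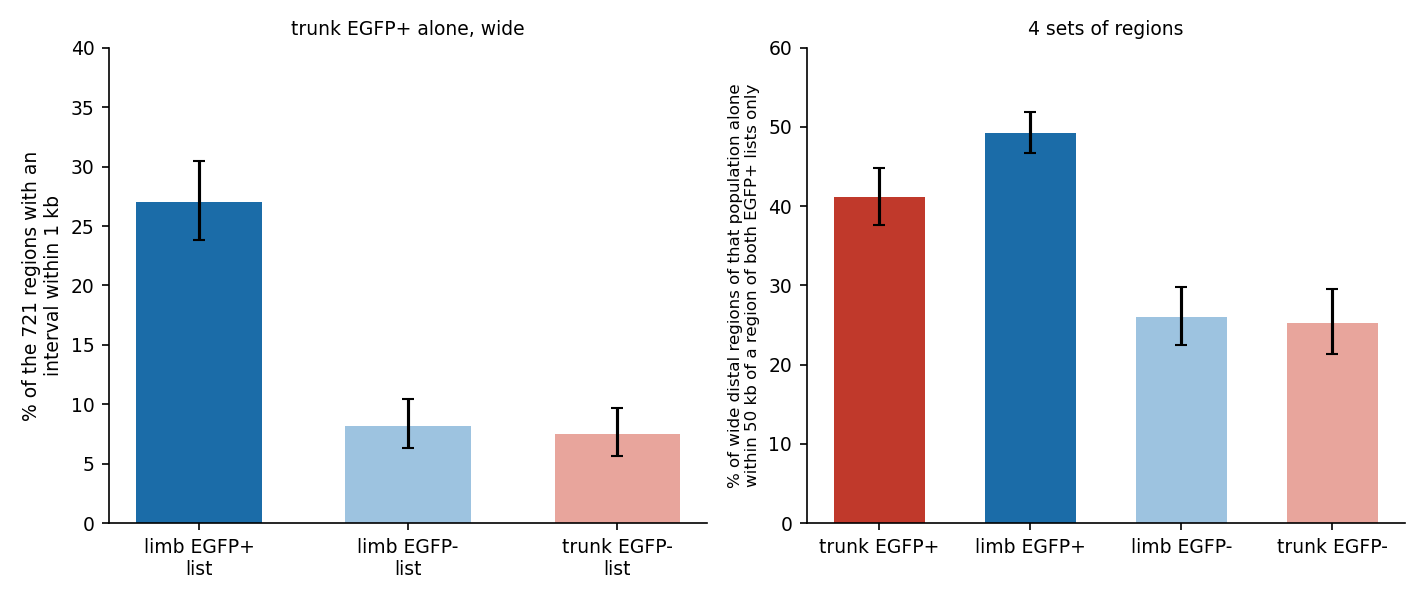
Percentage of the 721 regions with an interval of each other list within 1 kb (left), and percentage of the wide distal regions of each population alone that lay within 50 kb of a distal region of both EGFP+ lists only (right). Error bars are exact 95% binomial intervals for counting error. The limb EGFP+ bar on the left (27%) stands above the 8.18% and 7.49% of the EGFP- lists. The EGFP- sets, not drawn on the left, were likewise most often near the EGFP- list of the other tissue. Their shares were 20.04% for limb EGFP- and 21.76% for trunk EGFP- regions. On the right both EGFP+ bars (41.2% and 49.3%) stand above both EGFP- bars (26.0% and 25.3%), which the choice of regions with EGFP+ intervals only favours.

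Short motifs were searched on both strands within 250 bp of the strongest summit. They were SOX (AACAAT and ACAAAG, the latter also read by TCF factors), FOX (TGTTTAC), MEF2, RUNX (TGTGGTT), NKX3 (CACTTAA), PAX (GTCACGC), homeodomain (TAATTA), HOX with PBX (TGATTNAT), E-box (CAGCTG and CAGATG), AP-1 (TGANTCA), TEAD (GGAATGT), an NFI half-site (TTGGCA), GLI (TGGGTGG) and ETS (CCGGAAG). Different motifs were counted separately even where matches share bases, as MEF2 and TAATTA can. The median G and C content of the windows was 48.1%, against 46.7%, 46.3% and 49.5% in the limb EGFP+, limb EGFP- and trunk EGFP- sets and 49.5% over all distal trunk EGFP+ regions.

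The SOX letters AACAAT were in 129 of the 721 windows (17.9%, 15.2 to 20.9), close to the 17.3% of all distal trunk EGFP+ regions and the 19.4% of limb EGFP+ regions, and below the 27.2% (23.6 to 31.1) of limb EGFP- regions. The FOX letters were in 62 windows (8.6%, 6.66 to 10.9), against 7.30% of all distal trunk EGFP+ regions, 5.47% (4.35 to 6.77) of limb EGFP+ regions and 8.79% of trunk EGFP- regions. The RUNX letters were in 101 windows (14%, 11.6 to 16.8), just above the 11.3% of all distal trunk EGFP+ regions. The PAX letters were in 8 windows and the NKX3 letters in 40 (5.55%).

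The homeodomain letters were in 53 of the 721 windows (7.35%, 5.55 to 9.51) and in 13.5% (11.8 to 15.4) of limb EGFP+ windows, intervals that do not overlap. Within 100 bp of the summit the intervals overlapped, at 3.19% (2.03 to 4.75) and 4.91% (3.86 to 6.16). All distal trunk EGFP+ regions had 8.35%, limb EGFP- regions 10.9% and trunk EGFP- regions 9.23%. The E-box CAGCTG was in 209 windows (29%, 25.7 to 32.4) against 45.3% (40.6 to 50.0) of trunk EGFP- windows. All distal trunk EGFP+ regions had 30.4% and limb EGFP+ regions 25.8%. The E-box CAGATG was in 267 windows (37.0%, 33.5 to 40.7), against 48.3% (44.2 to 52.5) of limb EGFP- windows and 35.2% of all distal trunk EGFP+ regions. Apart from RUNX, the share of every motif over all distal trunk EGFP+ regions, which include the 721, lay within the interval of the share in the 721 windows.

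**Figure D5:**
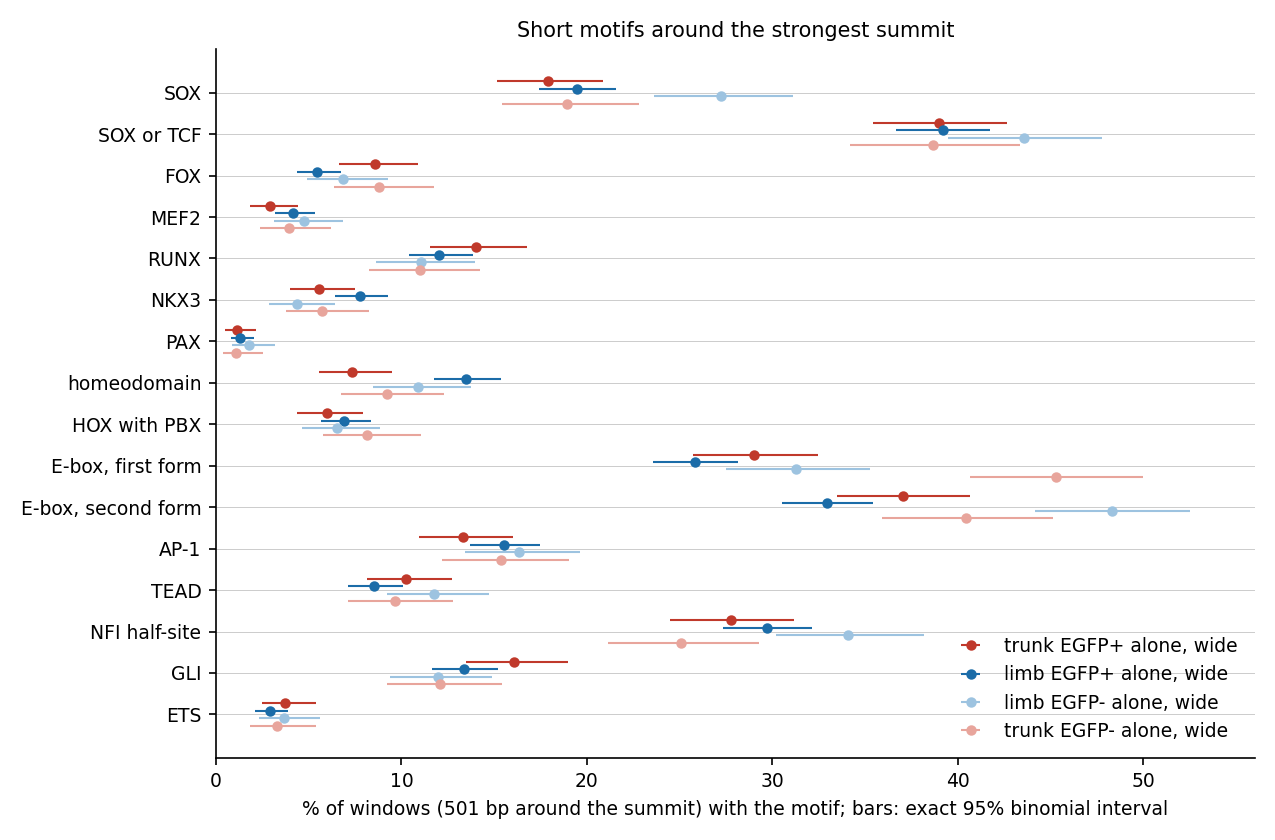
Percentage of 501 bp windows around the strongest summit that hold each motif, for the wide distal regions of the 4 populations alone, with exact 95% binomial intervals for counting error (E-box, first form: CAGCTG; second form: CAGATG). The trunk EGFP+ point lies at 7.35% against 13.5% for limb EGFP+ at the homeodomain letters, and at 29% against 45.3% for trunk EGFP- at the first E-box form.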

How the data were processed

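H3K27ac ChIP-seq reads of 4 sorted populations, 1 library each, had been processed by the authors before deposit. Per the study's methods, equal numbers of reads were sampled per library, trimmed with cutadapt 1.18, aligned to GRCm39 with Bowtie2 2.3.5.1, filtered by mapping quality with SAMtools and passed to MACS2 2.2.7.1 with reads extended to 200 bp. The q threshold, the control used for each library and the read length of each library are not given in the sources used here. The lowest −log10 q was 1.30 in each of the 4 lists. The deposited peak lists give a fold (a ratio of reads at the summit to local background), the −log10 p-value, the −log10 q-value and an integer score, which is 10 times the −log10 q rounded down and was not used.

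Rows of 1 list that share both ends, which are separate summits, were treated as 1 interval. Overlapping intervals of the 4 lists were merged, over chromosomes 1 to 19, X and Y. Reads at the summit and local background were solved from fold and −log10 p, which succeeded for 100% of summits within 0.1%. Their 95% intervals are exact Poisson intervals and those of shares exact binomial (Clopper-Pearson) intervals. Both cover counting error only, since sequenced reads are not independent molecules of separate samples. Start sites were the 67308 of protein-coding transcripts in the GRCm39 annotation, for 21562 gene symbols. Of the trunk-specific, limb-specific and shared chondrogenic genes listed by the study, 40 of 58, 47 of 67 and 556 of 654 were protein-coding symbols of that annotation, and of the notochord genes 11 of 12. Sequences were read from GRCm39 with pysam 0.24.0. Python 3.11.15, pandas 2.3.3 and scipy 1.17.1 were used, and the scripts were tested on simulated data.

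With 1 library per population no test between populations was possible. The regions and gene lists were chosen with earlier results of these data known. Genes were named where they belonged to the 12 regions of highest −log10 p, the 5 widest, the strongest region of each gene of the sclerotome, Hox, chondrocyte factor, cartilage matrix, growth plate and trunk-specific lists, the 8 genes with the most regions, the 3 regions on either side of the width minimum and the 5 densest groups. Other named genes are said to have been chosen after their values were seen. Alternatives in the strength, width, overlap, promoter and distance limits, the gene window, the annotated point and the motif window were computed.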

Additional observations from a re-analysis of the deposited data

How the results depend on the processing

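The number of regions depended most on width and strength. The 721 regions became 1860 with a minimum of 300 bp, 101 with 600 bp and 6 with 1000 bp. They became 185 when the trunk EGFP+ list was limited to a −log10 q of at least 5, 32 with a fold of at least 5 and 388 with no interval of the other lists within 5 kb. The other 7 alternatives gave 485 to 894. Of 187 genes of 6 lists, 39 had a region within 100 kb (20.9%, against 6.42% of all genes). The count became 81 within 500 kb (43.3%, against 26.4% of all genes). It became 16 with a −log10 q of at least 5 (8.56%, against 1.73%) and 5 with a minimum of 600 bp (2.67%, against 0.946%). The share of summits in protein-coding genes was 57.4% and became 53.5% with a minimum of 600 bp. The median gap to a limb EGFP+ interval was 10.0 kb and became 7.72 kb with a −log10 q of at least 5. The share of windows with the homeodomain letters was 7.35% and became 3.19% within 100 bp, 17.2% within 500 bp and 4.86% with a −log10 q of at least 5. Its interval no longer lay apart from that of limb EGFP+ regions within 100 bp. The count of Hox genes with a region was 11 and became 0 with a −log10 q of at least 5 and with a minimum of 600 bp. That of chondrocyte factors was 5 and became 2 with a −log10 q of at least 5 and 0 with a minimum of 600 bp. Only 1.73% and 0.946% of all genes had a region in these settings, so 0 of 39 or 20 genes cannot show a lower share. With a −log10 q of at least 5 the sclerotome count stayed at 4. The trunk-specific count went from 7 to 5, that of growth plate signalling from 10 to 6 and that of cartilage matrix from 4 to 1. With a minimum of 600 bp these 4 counts became 1, 2, 2 and 1. The causes were not tested. No paired analysis was possible because each population had 1 library. Depth limits the absence of a call, since distal summits with 7 or 8 reads were the weakest called.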

Other observations

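Npas3, which encodes a neuronal transcription factor, held 4 of the regions within its body and Aff3 held 3. Both were named after their values were seen. No interval on an unplaced scaffold or the mitochondrial genome was at least 400 bp wide and of trunk EGFP+ cells alone, while the 4 lists held 38 to 47 intervals there.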
